A study of Mus musculus with 8 samples.

Results

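The change of gene expression from day 0 to day 5 of adipogenic induction was examined within 1 line, shNFIB, a derivative of the mouse mesenchymal stem cell (MSC) line C3H10T1/2 that stably carries a short hairpin RNA against the transcription factor NFIB. All genes with an RPKM (reads per kilobase of exon, scaled to the mapped reads of the library) over 1 on at least 1 of the 2 days were included, which gave 10838 of the 41325 gene symbols listed. Of these, 1096 were more than 2-fold higher at day 5 (10.1%), 486 were more than 2-fold lower (4.48%) and 9256 were neither. The change is given as the log2 of the ratio of RPKM + 0.1 at day 5 to RPKM + 0.1 at day 0, and "rose" and "fell" are used only for genes past 2-fold.

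Day 0 is the point 2 days after confluence at which induction started. The cells then received 10 µg/ml insulin, 1 µM dexamethasone and 0.5 mM isobutylmethylxanthine until day 2, insulin alone for 2 days and plain serum medium after that, and day 5 is the later library. The shControl line is named after a control hairpin and is labelled as wild type. The study's methods describe no control hairpin, so whether this line carries one or was cloned is not known here. It was treated in the same way. The shKDM4D and shMLL1 lines carry hairpins against the chromatin regulators KDM4D and MLL1. Each line was sequenced once on each day, which gives 8 libraries in all. According to the study's methods the hairpin lines were grown from isolated puromycin-resistant clones, so that a property of the clone and the loss of NFIB cannot be told apart here, and the sources used here do not say which shNFIB clone was sequenced. No test between conditions was possible, and the 95% intervals given below are exact intervals from recovered reads that cover counting error only, with no variation between cultures and with PCR duplicates counted as reads. In a bulk RNA sample, fewer cells of a kind and less RNA per cell cannot be told apart.

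Fat cell formation from such stem cells is a cascade. Insulin, a glucocorticoid and a cAMP-raising drug switch on C/EBPβ and C/EBPδ, these switch on PPARγ and C/EBPα, and the latter pair switches on the genes of the mature fat cell, while the cells leave the cell cycle and rebuild the matrix around them. The NFI family, of which NFIB is 1 of 4 members, binds DNA at a palindromic site and has been described as a partner in this cascade.

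The targeted gene was examined first. *Nfib* (GRCm38 chromosome 4, 82290173 to 82705750, protein coding) had an RPKM of 2.31 at day 0 and 3.38 at day 5 in shNFIB cells, against 9.92 and 17.0 in shControl cells. The log2 change within shNFIB cells was 0.53, and the ratio of the recovered reads, 645 and 801, had a log2 of 0.55 (95% interval 0.40 to 0.70). The transcript was thus lower than in shControl cells on both days and went up by less than 2-fold in each line. Of the other family members, *Nfia* went from 1.55 to 2.65, *Nfix* from 41.1 to 39.4 and *Nfic* from 49.2 to 41.9 in shNFIB cells.

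The libraries held 18700000 mapped reads at day 0 and 15800000 at day 5, at which 3 reads on 1 kb of exon correspond to an RPKM of 0.161 and 0.189. Reads on transcripts that resemble ribosomal RNA took 8.30% of the day 0 library and 3.62% of the day 5 library, and the other lines changed in the same direction (10.2% to 3.14% in shControl cells). The label of a mesenchymal line was checked with 15 marker genes, of which 13 were over the filter. Vimentin (*Vim*) had an RPKM of 1320 at day 0 and 1150 at day 5, the mesenchymal factor *Prrx1* 151 and 153, and *Itgb1* 189 and 163. The marker *Thy1* was close to 0 in shNFIB cells (0.0179 and 0.0632) and was at 25 and 22.6 in shControl cells, and *Nt5e* was the other marker under the filter. The summed RPKM of 11 leukocyte markers was 6.70 at day 0 and 7.97 at day 5, most of it from *Cd14*, and *Ptprc*, the gene of CD45, was at 0 on both days. The sums of the endothelial (0.740 and 0.867), epithelial (1.80 and 2.21) and skeletal muscle markers (0.636 and 2.27) were low, and those of neural (7.28 and 9.79) and brown fat markers (3.46 and 6.98) were of the order of the leukocyte sum.

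Most genes moved little. The log2 change was within 0.5 of 0 for 61.6% of the 10838 genes, and its median was 0.08. Changes of more than 4-fold were seen in 414 genes upward and 65 downward, and changes of more than 16-fold in 99 and 5. The 95% interval lay wholly above 2-fold for 747 of the 1096 higher genes and wholly below it for 322 of the 486 lower genes. At the edge of the filter, *Rhbdl3* was just inside with an RPKM of 1.000039 and *Rtn4ip1* just outside with 1.000000. The share of higher genes among all changed genes was 69.3%, but it depended on the scaling, being 52.1% after quantile normalization, 59.3% with median-of-ratios scaling and 24.2% when each value was divided by *Gapdh*, which itself went from 159 to 235. Dividing by *Gapdh* brought the median over all genes to -0.49 and turned the sign of the median of 18 of 43 gene lists, so that small list medians are to be read relative to the 0.08 of all genes. The fat cell list and the PPAR, RXR and C/EBP list described next were among them, with -0.10 and -0.27.

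The same rule gave 10960 genes in shControl cells, of which 1302 were higher (11.9%) and 863 lower (7.87%). Of the higher genes, 647 were called in both lines, which is 59.0% of the shNFIB genes and 49.7% of the shControl genes. Of the lower genes, 307 were called in both, which is 63.2% of the shNFIB genes and 35.6% of the shControl genes. Opposite calls were few, with 14 genes higher in shNFIB and lower in shControl cells and 7 the other way round. The 1302 genes that rose in shControl cells had a median log2 change of 1.66 there and 1.19 in shNFIB cells, where 1231 of them were above 0. The 863 genes that fell had a median of -1.37 in shControl and -0.80 in shNFIB cells, where 764 of them were below 0. No library is shared between these 2 comparisons.

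**Figure D1:**
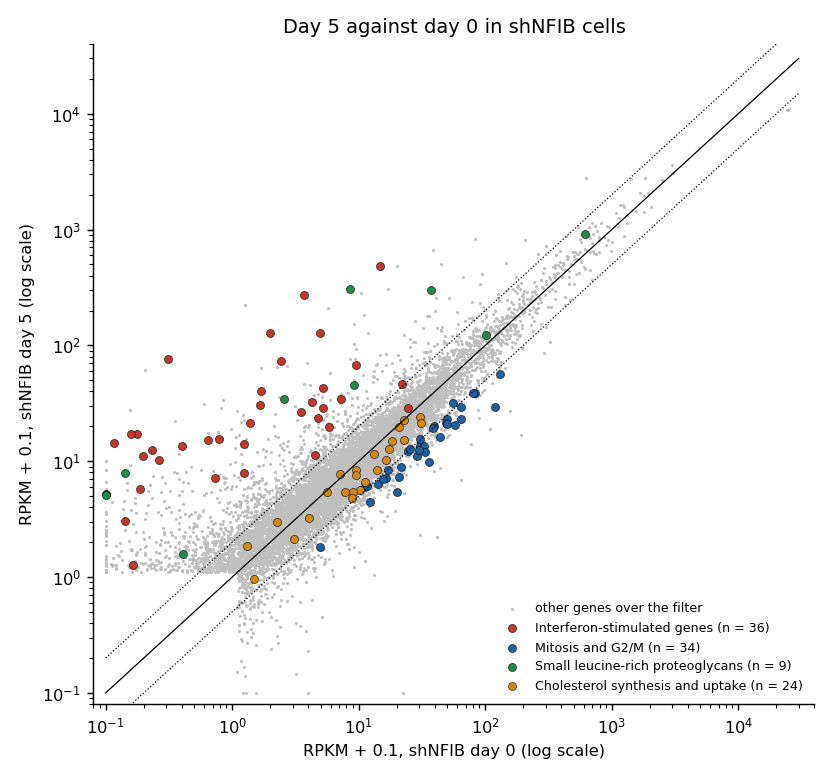
RPKM + 0.1 at day 5 (y axis, log scale) against day 0 (x axis, log scale) for the 10838 genes in shNFIB cells, 1 library a day, with 4 gene lists coloured, equality as a solid line and 2-fold as dotted lines. Of 36 interferon-stimulated genes 35 lie above the upper dotted line, 27 of 34 mitosis genes lie under the lower one, and all 24 cholesterol genes lie between them.

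The genes were grouped into lists of known function. Each count of rises and falls in a list is to be read beside the shares of all genes. These were 10.1% and 4.48% in shNFIB cells and 11.9% and 7.87% in shControl cells. The plot of list medians shows where each list lay in the 4 lines. In shNFIB cells the highest medians belonged to the interferon-stimulated genes (4.36) and the MHC class I genes (3.22). The small leucine-rich proteoglycans (3.0) and the adipokine and acute-phase genes (2.07) followed. The lowest medians belonged to the mitosis (-1.19) and DNA replication genes (-0.88), apart from a list of 2 proliferins.

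**Figure D2:**
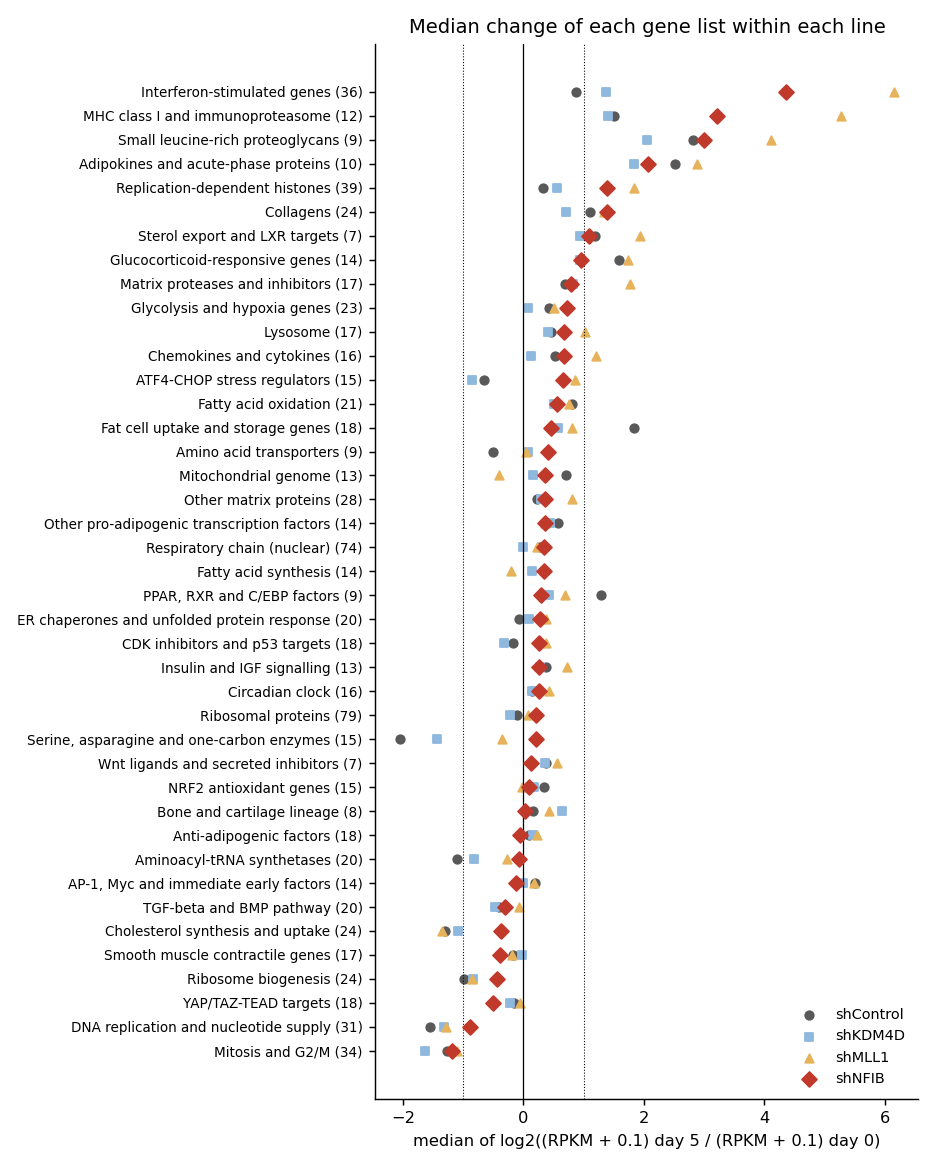
Median log2 change from day 0 to day 5 (x axis) of each gene list (y axis, with the number of members over the filter in shNFIB cells) in shControl, shKDM4D, shMLL1 and shNFIB cells, each point resting on 1 library per day, with lines at 0 and at 2-fold. The shNFIB diamonds lie to the right of the shControl points for interferon-stimulated genes (4.36 against 0.88) and serine and one-carbon enzymes (0.20 against -2.05), and to their left for fat cell genes (0.45 against 1.83).

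The upstream part of the fat cell cascade was expressed, with small changes between day 0 and day 5. The full hormone mix ended at day 2, and a rise and return between the 2 sequenced days would not be seen. Of 9 PPAR, RXR and C/EBP factors and coactivators over the filter, 2 rose and none fell in shNFIB cells, with a median of 0.29 against 0.08 over all genes. In shControl cells 5 of the same 9 rose and the median was 1.29. *Cebpb* had an RPKM of 35.8 at day 0 and 39.5 at day 5 in shNFIB cells and of 38.3 and 49.3 in shControl cells. *Cebpd* was at 39.8 and 47.8, against 19.6 and 48.1, so that its day 5 level was alike in both lines and its day 0 level was not. *Pparg*, the master factor of fat cells, had an RPKM of 6.02 and 7.48 in shNFIB cells and of 8.2 and 21.7 in shControl cells. Its log2 change was 0.31 (95% interval 0.09 to 0.53) and 1.39 in that order.

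*Cebpa* rose in shNFIB cells from 1.22 to 3.66, a log2 change of 1.51 (log2 read ratio 1.59, 95% interval 1.15 to 2.04), and in shControl cells from 2.05 to 14, a log2 change of 2.71. After division by *Gapdh* its change in shNFIB cells was no longer past 2-fold. *Ppargc1a*, which encodes a coactivator of mitochondrial genes, rose from 0.171 to 1.83, a log2 change of 2.83, against 2.14 in shControl cells. Among factors that act with or ahead of *Pparg*, the zinc finger factor *Zfp423*, which marks cells committed to the fat lineage, rose from 0.420 to 2.74 (log2 change 2.45, against 2.81), and *Ebf1* from 1.88 to 9.28 (2.24, against 2.22). *Klf5* fell from 1.98 to 0.801 (-1.21, against -2.48). Of the 14 pro-adipogenic factors in that list 2 rose and 1 fell, against 5 and 2 in shControl cells. Of 18 anti-adipogenic factors 2 rose (*Sox9* and *Snai2*) and 1 fell (*Twist2*), against 5 and 1. Both shNFIB counts are near the shares of all genes, 10.1% higher and 4.48% lower.

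Several defining genes of the mature fat cell were under the filter on both days. Of 32 uptake and storage genes, 18 were over the filter in shNFIB cells, and of these 6 rose and none fell, with a median of 0.45. The count was 3 with a pseudocount of 1, and 2 rose and 1 fell after division by *Gapdh*. The same 18 genes had 11 rises and a median of 1.83 in shControl cells. *Adipoq*, the gene of the fat cell hormone adiponectin, had 1 read at day 0 and 5 reads at day 5 in shNFIB cells, an RPKM of 0.0388 and 0.229, against 0.0272 and 258 in shControl cells. The lipid droplet genes *Plin1* (0.0230 and 0.0407) and *Cidec* (0 and 0.0680), the lipase *Lpl* (0.0562 and 0.151) and the protease adipsin, *Cfd* (0 and 0.0685), were likewise under the filter on both days. The 5 genes of the whole comparison whose change in shNFIB cells lay furthest below that in shControl cells were these 5.

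Within this group a few genes still rose. *G0s2*, which encodes an inhibitor of the lipase ATGL, had no read at day 0 and 137 reads at day 5 (RPKM 9.93), which makes it at least 53.8-fold higher when 3 reads are taken as the floor of the day 0 library. It went from 0.388 to 32.8 in shControl cells. *Dgat2*, which makes triglyceride, rose from 1.20 to 4.93, *Plin4* from 6.0 to 16.7 and the lipase *Mgll* from 1.38 to 3.32. *Plin2*, which coats droplets in many cell types, was at 20.8 and 35.6, and the fatty acid carrier *Fabp5* at 16.0 and 9.38. Fatty acid synthesis genes moved little (1 of 14 rose, *Scd2*, from 59.6 to 123), and *Scd1* was at 8.80 and 11 in shNFIB cells against 27.0 and 272 in shControl cells.

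Of 18 adipokine and acute-phase genes 10 were over the filter in shNFIB cells, where 8 rose and 1 fell (median 2.07). Of the same 10 genes 8 rose in shControl cells (median 2.52). Members under the filter in shNFIB cells were left out for both lines. The summed RPKM of all 18 genes went from 104 to 661 in shNFIB cells and from 116 to 1910 in shControl cells. Complement *C3* (chromosome 17, 57203970 to 57228136) went from 45.0 to 507 in shNFIB cells and from 60.5 to 956 in shControl cells, with a log2 change of 3.49 (95% interval 3.45 to 3.54) and 3.98. Haptoglobin, *Hp*, which binds free haemoglobin, went from 0.867 to 9.43 (log2 change 3.30) in shNFIB cells, against 1.43 to 304 (7.64) in shControl cells. *Lcn2*, an iron carrier, went from 1.82 to 15.6, and orosomucoid *Orm1* from 0 to 1.06, at least 5.11-fold.

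The sterol export genes, targets of the LXR receptors, had 4 of 7 members higher past 2-fold and a median of 1.09 against 1.19 in shControl cells. *Apoe*, the lipid carrier of lipoproteins, rose from 0.601 to 8.18 and *Abca1*, the cholesterol pump, from 1.43 to 6.46. In shControl cells they went from 0.246 to 31.7 and from 1.87 to 26.5. Of 14 glucocorticoid-responsive genes 7 rose in shNFIB cells, beside 10.1% of all genes, and 11 in shControl cells. After division by *Gapdh* 3 rose and 2 fell in shNFIB cells, and 2 of the sterol export genes rose. *Sult1a1* went from 0.0711 to 4.73 in shNFIB cells, with 2 reads at day 0 and a log2 read ratio of 6.06 (95% interval 4.17 to 9.12), and *Rgs2*, a brake on G protein signals, from 0.960 to 12.8, a log2 change of 3.61.

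**Figure D3:**
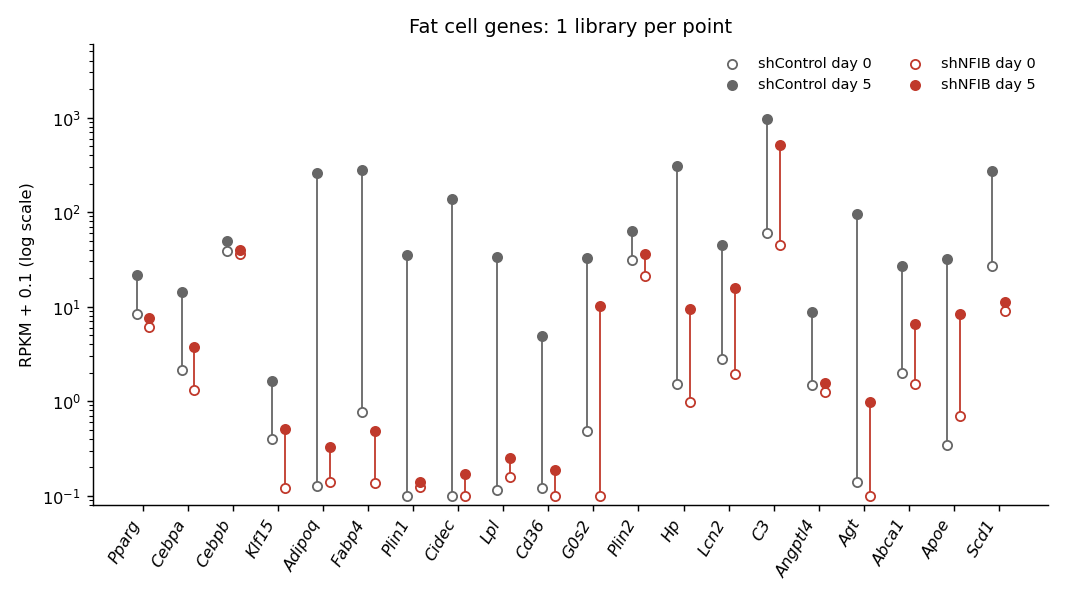
RPKM + 0.1 (y axis, log scale) of 20 fat cell genes at day 0 (open) and day 5 (filled) in shControl (grey) and shNFIB cells (red), 1 library per point. *Adipoq*, *Plin1*, *Cidec*, *Lpl* and *Cd36* stay under 0.4 at day 5 in shNFIB cells, while *Hp*, *Lcn2*, *C3*, *G0s2*, *Abca1* and *Apoe* are higher at day 5 in both lines.

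The largest group change in shNFIB cells was in interferon-stimulated genes, which cells switch on through a complex of STAT factors and IRF9 after contact with an interferon and which hold viruses in check. Of 41 genes in the list 36 were over the filter, and of these 35 rose and none fell, beside 10.1% of all genes. Their median log2 change was 4.36, and it was 4.37 with the 1 gene that had a library at 0 put at its lower bound. For the same 36 genes the median was 0.88 in shControl cells, with 16 past 2-fold, 1.37 in shKDM4D cells, with 26, and 6.15 in shMLL1 cells, with 35. The number of rises in shNFIB cells ranged from 33 to 37 over the alternatives in which lists were counted, where 37 came from the list without a filter.

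Among the sensors of foreign nucleic acid, *Ddx58* (RIG-I) rose from 5.13 to 28.5, *Dhx58* from 0.164 to 10.1 and *Ifih1* (MDA5) from 0.0656 to 1.18. The Z-form nucleic acid sensor *Zbp1* went from 0.547 to 15.1 in shNFIB cells and was at 0.606 and 0.689 in shControl cells. The signalling factors followed. *Stat2* rose from 4.64 to 23.3, *Irf9* from 3.37 to 26.7 and *Irf7* from 0.298 to 13.3. In shControl cells *Stat2* was at 5.13 and 6.54 and *Irf7* at 1.16 and 1.89.

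The effectors had the largest ratios. *Isg15* (chromosome 4, 156199424 to 156200818), a ubiquitin-like protein, rose from an RPKM of 0.213 to 76.6 in shNFIB cells, against 1.54 to 3.70 in shControl cells. Its log2 change was 7.94, and the log2 ratio of its recovered reads, 3 and 917, was 8.49 (95% interval 6.94 to 10.77). *Usp18*, which removes ISG15 from proteins, rose from 0.0576 to 17.0 and was at 1.01 and 1.11 in shControl cells. *Ifit1* (chromosome 19, 34640871 to 34650009), which binds viral RNA, rose from 3.61 to 273, a log2 change of 6.20 (11.3 to 17.0 in shControl cells), and its neighbour *Ifit3* from 14.6 to 489 (26 to 48.5).

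*Bst2*, or tetherin, which holds budding viruses at the membrane, rose from 1.90 to 127, and *Oas2*, which makes the messenger 2-5A, had no read at day 0 and was at least 143-fold higher at day 5 with an RPKM of 5.16. At day 0, 35 of the 36 genes were lower in shNFIB than in shControl cells. The share of all genes that were lower at day 0 was not computed. Other lists also leaned downward, such as 22 of 24 cholesterol genes, while all 34 mitosis genes were higher. Members could pass the filter through day 5 alone, which favours low day 0 values. The member that did not pass 2-fold was *Ifit2*, with an RPKM of 24.6 at day 0 and 28.6 at day 5. *Rsad2* and *Oasl1* had no read on either day. Outside the list, *Ifi27l2a* rose from 1.16 to 225, a log2 change of 7.48, against 1.53 in shControl cells. The part of leukocytes in these values was not tested, and their markers are given above, with *Ptprc* at 0.

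**Figure D4:**
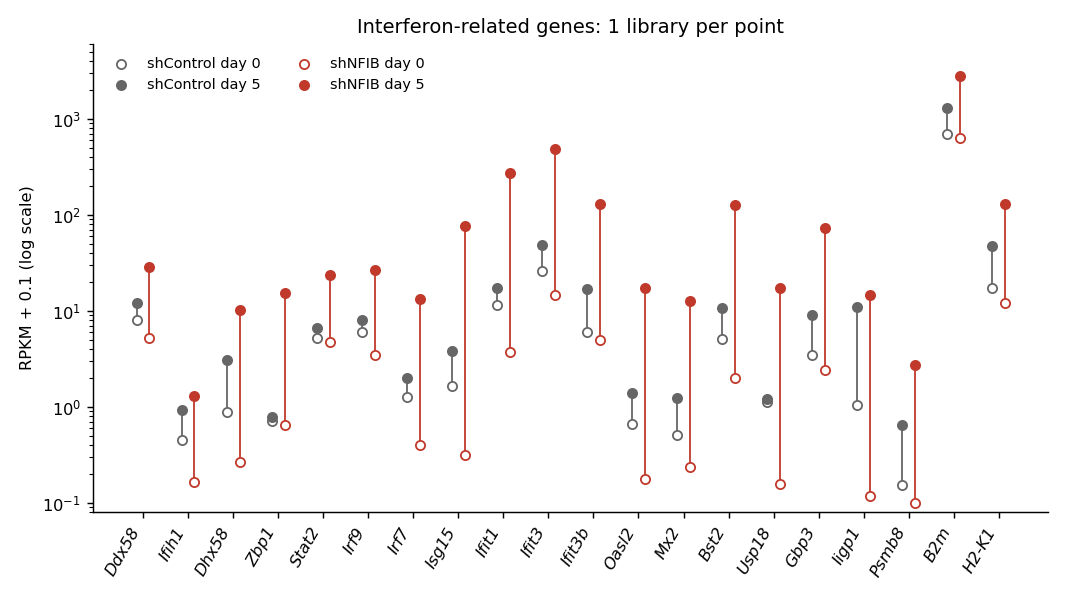
RPKM + 0.1 (y axis, log scale) of 20 interferon-related genes at day 0 (open) and day 5 (filled) in shControl (grey) and shNFIB cells (red), 1 library per point. Each red line is longer than the grey one beside it, and *Isg15* spans from 0.213 to 76.6 in shNFIB cells before 0.1 is added.

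The promoters of these genes were read for the letters GAAANNGAAA on either strand, the core that interferon-activated factors bind. RefSeq windows (GRCm38.p6) from 250 bases before to 50 bases after the start were at hand for 8438 of the 10838 genes. The letters were present in 323 of the 8438 (3.83%), in 81 of 772 higher genes (10.5%), in 10 of 360 lower genes (2.78%), in 16 of the 25 interferon-stimulated genes with a window (64.0%) and in 3 of 11 MHC class I genes (27.3%). The stretches around the match of 4 strongly rising genes are shown 5′ to 3′ on the strand of the gene because they carry this shared feature. Capitals mark every match, so that overlapping matches run together.
Isg15, chr4:156200850-156200909, minus strand: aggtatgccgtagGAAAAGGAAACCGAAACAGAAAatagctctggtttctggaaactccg
Ifit1, chr19:34640779-34640838, plus strand: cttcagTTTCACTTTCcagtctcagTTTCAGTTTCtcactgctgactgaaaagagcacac
Bst2, chr8:71537562-71537621, minus strand: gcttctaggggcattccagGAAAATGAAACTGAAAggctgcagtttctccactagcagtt
Ifit3, chr19:34583382-34583441, plus strand: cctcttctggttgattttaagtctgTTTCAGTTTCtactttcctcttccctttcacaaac
The match nearest to the start began 66 bases before it in *Isg15*, 85 in *Ifit1*, 124 in *Bst2* and 122 in *Ifit3*. A match is a description of the letters and not evidence that a factor was bound.

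Antigen presentation moved the same way. All 12 MHC class I, peptide transport and immunoproteasome genes over the filter rose in shNFIB cells, with a median log2 change of 3.22 against 1.5 in shControl cells, where 8 rose. *B2m*, the constant chain of MHC class I, went from 631 to 2780 in shNFIB cells and from 700 to 1290 in shControl cells. *H2-K1*, a heavy chain that shares reads with near-identical relatives, went from 11.8 to 128 (17.3 to 47.6 in shControl cells). The immunoproteasome subunit *Psmb8* had no read at day 0 and was at least 55.8-fold higher at day 5, and its neighbour *Psmb9* went from 0.0146 to 1.36. *Tap2*, a peptide transporter encoded in the same stretch of chromosome 17, went from 1.11 to 14.4, close to the 0.784 to 9.19 of shControl cells. *Nlrc5*, the activator of this gene set, stayed under the filter at 0.240 and 0.632.

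Of 16 chemokine and cytokine genes 7 rose and 2 fell in shNFIB cells, beside 10.1% and 4.48% of all genes. The interferon-responsive *Ccl5* rose from 0.223 to 5.39 and *Cxcl10* from 0.119 to 2.13, and in shControl cells they were at 0.978 and 1.94 and at 0.267 and 0.184. *Cxcl12*, a chemokine of stromal cells, rose from 51.8 to 254 in shNFIB cells and from 76.5 to 418 in shControl cells. *Il1rl1*, the receptor of interleukin 33, fell from 13.2 to 0.943, and its ligand *Il33* from 3.32 to 1.49.

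Small leucine-rich proteoglycans, which bind collagen fibrils and space them, had 7 rises and no fall among 9 genes, beside 10.1% and 4.48% of all genes. Their median was 3.0 in shNFIB and 2.81 in shControl cells. They lie in runs of neighbouring genes. On chromosome 13, *Aspn* (49544443 to 49567565) rose from 8.47 to 306 (log2 change 5.16, 95% interval 5.03 to 5.33), *Omd* (49582462 to 49592822) from 9.12 to 45.1 and *Ogn* (49608046 to 49624501) from 37.3 to 298. In shControl cells *Aspn* went from 64.9 to 454 and *Ogn* from 66.5 to 600.

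On chromosome 10, *Dcn* (97479609 to 97518143), the gene of decorin, rose from 2.47 to 34.5 against 3.72 to 31.8 in shControl cells. Next to it, *Lum* (97565128 to 97572703) had no read at day 0 and was at least 75.8-fold higher at day 5, *Kera* was under the filter at 0 and 0.720, and *Epyc* (97644068 to 97682454) rose from 0.0418 to 7.86 (0.0880 to 1.31 in shControl cells). *Bgn* and *Prelp*, which lie elsewhere, did not pass 2-fold, with *Bgn* at 614 and 913.

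Of 24 collagen genes 13 rose (54.2%) and 1 fell (4.17%) in shNFIB cells, beside 10.1% and 4.48% of all genes. Their median was 1.38 against 1.10 in shControl cells. The fibrillar *Col3a1* (chromosome 1, 45311538 to 45349706) went from 82.6 to 824 in shNFIB cells and from 140 to 535 in shControl cells. *Col15a1*, a basement membrane collagen that rises with fat cell formation, went from 0.667 to 17.7, against 1.13 to 38.9. The most abundant collagen, *Col1a1*, was at 660 and 859, and the cartilage collagen *Col2a1* fell from 23.4 to 7.48. The number of collagens that rose was 8 when the filter was set at an RPKM of 2. Without a filter 13 collagens rose and the median of the list was 0.57.

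Other matrix genes moved unevenly, with 9 rises (32.1%) and 1 fall (3.57%) of 28 genes, beside 10.1% and 4.48% of all genes. Periostin, *Postn*, rose from 10.3 to 285, *Loxl2*, which links collagen chains, from 0.0198 to 1.75 and *Sparc* from 433 to 875. *Fbn2*, a fibrillin, rose from 0.849 to 4.32. Of 17 matrix proteases and inhibitors 8 rose (47.1%) and 1 fell (5.88%). The protease *Mmp3* rose from 0.327 to 13.4, and the inhibitor *Timp3* fell from 289 to 86.7, against 155 and 94.8 in shControl cells.

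All 34 mitosis genes were below 0 in shNFIB cells, 27 of them past 2-fold, beside 4.48% of all genes, with a median of -1.19 against -1.27 in shControl cells, where 29 fell. *Mki67* (chromosome 7, 135689784 to 135716361), a marker of dividing cells, went from 119 to 29.5 in shNFIB cells, a log2 change of -2.01 (95% interval -2.06 to -1.97), and from 76.7 to 30.1 in shControl cells. *Top2a*, which untangles DNA, went from 130 to 56.5, and the kinetochore motor *Cenpe* from 35.9 to 9.72. The day 0 sum of the list was 1360 in shNFIB and 875 in shControl cells, and the day 5 sum was 569 and 369.

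DNA replication genes were also all below 0, but 7 of 31 passed 2-fold in shNFIB cells and 28 of 31 in shControl cells, and the medians were -0.88 and -1.55. *Pcna*, the sliding clamp of the polymerase, was at 71.6 and 52.0 in shNFIB cells and at 86.4 and 36.2 in shControl cells. *Mcm4*, a helicase subunit, was at 68.2 on day 0 in both lines and at 37.7 and 22.3 on day 5. *Cdt1*, which loads the helicase, fell from 10.7 to 4.80, and thymidine kinase *Tk1* from 32.9 to 14.7. *Ccnd1*, the gene of cyclin D1, was at 130 and 65.3, a log2 change of -1.0. The count of 7 rests close to the limit, and it ranged from 3 to 29 over the alternatives in which lists were counted, with 29 for the ratio to *Gapdh*.

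The letters TTTGAA, the cell cycle homology region that keeps mitosis genes silent in resting cells, was present in 22 of 29 mitosis gene windows (75.9%), in 96 of 360 lower genes (26.7%), in 133 of 772 higher genes (17.2%) and in 1210 of all 8438 (14.3%), on either strand. The stretches around the match of 4 genes that fell are shown in the same way, with the match in capitals.
Mki67, chr7:135716447-135716502, minus strand: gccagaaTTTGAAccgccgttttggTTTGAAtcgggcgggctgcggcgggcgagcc
Cdc20, chr4:118437344-118437386, minus strand: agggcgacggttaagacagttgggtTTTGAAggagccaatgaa
Kif11, chr19:37376338-37376381, plus strand: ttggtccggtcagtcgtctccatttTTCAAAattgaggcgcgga
Espl1, chr15:102296241-102296292, plus strand: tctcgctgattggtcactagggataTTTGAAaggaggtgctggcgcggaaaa
Of these, *Cdc20*, an activator of the anaphase complex, went from 33.4 to 11.8, the spindle motor *Kif11* from 64.1 to 23.2 and separase, *Espl1*, from 4.88 to 1.72.

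Replication-dependent histone genes, whose transcripts mostly end without a poly(A) tail and are made in S phase, went the other way. They had 24 rises (61.5%) and 4 falls (10.3%) among 39 genes, beside 10.1% and 4.48% of all genes. Their median was 1.39 against 0.32 in shControl cells. The linker histone *Hist1h1c* went from 9.07 to 103 in shNFIB cells and from 21.9 to 94.0 in shControl cells, and *Hist1h2bc* from 34.4 to 179 and from 49.2 to 130. Many members are near-identical copies between which reads could be split, so that single members such as *Hist1h2ap*, which fell from 3.89 to 0.131, are uncertain.

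The stress factor ATF4 and its partners are switched on when amino acids run short or proteins misfold, and they drive enzymes that make serine, asparagine and one-carbon units. Of 15 ATF4-CHOP regulators 5 rose and none fell in shNFIB cells (median 0.66), beside 10.1% and 4.48% of all genes. In shControl cells 1 rose and 6 fell (median -0.65). In shMLL1 cells 6 rose and none fell (median 0.85), and in shKDM4D cells none rose and 6 fell (median -0.86). After division by *Gapdh* 4 rose and none fell in shNFIB cells, with a median of 0.10. *Trib3*, a pseudokinase that feeds back on ATF4, rose from 2.29 to 9.33 in shNFIB cells and fell from 27.9 to 3.21 in shControl cells. *Chac1*, which breaks down glutathione, rose from 3.44 to 12.7 and fell from 21.7 to 2.43, in the same order. The log2 read ratio in shNFIB cells was 2.02 for *Trib3* (95% interval 1.68 to 2.38) and 1.88 for *Chac1* (1.56 to 2.22). *Atf4* itself was at 70.9 and 105 in shNFIB cells and fell from 187 to 71.9 in shControl cells.

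The day 0 level of these 3 genes was thus lower in shNFIB cells and the day 5 level higher. At day 0 all 15 regulators were lower in shNFIB than in shControl cells, as were 14 of the 15 enzymes described next. The share of all genes that were lower at day 0 was not computed. A lower start was also seen in 20 of 23 glycolysis and hypoxia genes and 14 of 17 lysosome genes, while all 34 mitosis genes were higher. *Atf3* rose from 0.224 to 1.76 (9 and 60 reads) and *Ddit4*, an inhibitor of mTOR, from 5.46 to 24.7, the latter with a similar rise in shControl cells, from 8.62 to 24.6. *Vldlr*, a lipoprotein receptor induced by ATF4, rose from 3.60 to 9.54 and was at 9.40 and 5.95 in shControl cells.

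Among these 15 serine, asparagine and one-carbon enzymes, 14 fell in shControl cells (median -2.05) and none in shNFIB cells, where 1 rose and the median was 0.20. In shMLL1 cells 3 of them fell and in shKDM4D cells 10. After division by *Gapdh* 2 fell and 1 rose in shNFIB cells, with a median of -0.36. *Phgdh*, which starts serine synthesis, was at 60 and 57.3 in shNFIB cells and fell from 134 to 28.7 in shControl cells. *Psat1*, the next enzyme, was at 33.8 and 30.6 and fell from 77.3 to 13.1. *Cth*, which makes cysteine, rose from 0.864 to 2.87 and fell from 9.93 to 1.95 in shControl cells.

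The day 0 sum of these 15 enzymes was 257 in shNFIB and 583 in shControl cells, and the day 5 sum was 268 and 142. The leucine transporter *Slc7a5* was at 16.9 and 31.4 and fell from 64.1 to 9.03 in shControl cells. None of 20 aminoacyl-tRNA synthetases passed 2-fold in shNFIB cells (median -0.08), while 12 fell in shControl cells (median -1.10), 9 in shKDM4D cells and none in shMLL1 cells. None of 20 ER chaperones and unfolded protein response genes passed it either, with a median of 0.28, and *Calr* was at 704 and 1150.

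The letters TGATGNAA, which C/EBP-ATF dimers bind, were found on either strand in 5 of 14 windows of ATF4-CHOP regulators (35.7%), in 4 of 13 of the serine, asparagine and one-carbon enzymes (30.8%), in 35 of 772 higher genes (4.53%) and in 212 of all 8438 (2.51%). The stretches of 3 rising genes are shown because they hold the same 8 letters, TTGCATCA, which are in capitals.
Atf3, chr1:191183411-191183468, minus strand: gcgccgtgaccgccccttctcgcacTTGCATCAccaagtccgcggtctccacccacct
Chac1, chr2:119351024-119351081, plus strand: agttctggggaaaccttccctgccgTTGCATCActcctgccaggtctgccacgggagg
Vldlr, chr19:27216795-27216852, plus strand: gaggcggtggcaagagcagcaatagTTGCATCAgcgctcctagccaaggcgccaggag

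Cholesterol synthesis, which is driven by SREBP2, showed a like contrast in size. None of 24 genes passed 2-fold in shNFIB cells, although 20 were below 0 and the median was -0.38, while 16 fell in shControl cells (median -1.31), 15 in shKDM4D cells and 20 in shMLL1 cells. Squalene epoxidase, *Sqle*, was at 13.9 and 8.33 in shNFIB cells and fell from 20.7 to 2.59 in shControl cells. *Cyp51*, a demethylase of the pathway, was at 30.7 and 21.3 and fell from 42.7 to 14.2. At day 0, 22 of the 24 genes were lower in shNFIB than in shControl cells, and the share over all genes was not computed. The summed RPKM of all 25 genes in the list went from 296 to 227 in shNFIB cells and from 464 to 188 in shControl cells. When values were divided by *Gapdh*, 11 of the 24 passed 2-fold downward in shNFIB cells.

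**Figure D5:**
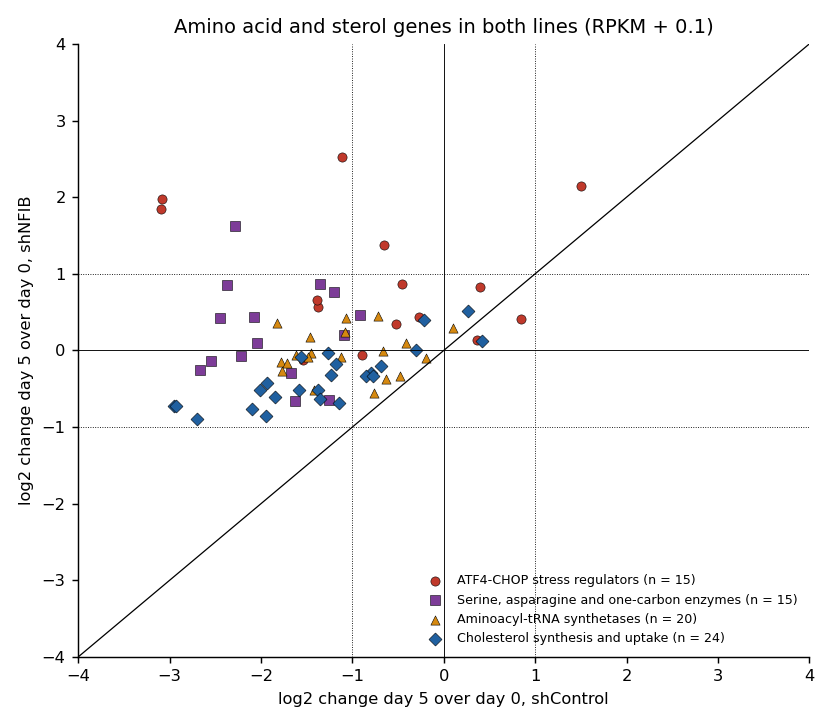
Log2 change from day 0 to day 5 in shNFIB cells (y axis) against that in shControl cells (x axis) for 4 gene lists, 1 point per gene, with equality as the diagonal and 2-fold as dotted lines. Most points lie above the diagonal, and *Trib3* (-3.08 and 1.98) and *Chac1* (-3.10 and 1.85) lie furthest into the upper left corner.

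Of the genes of energy metabolism, none of 21 fatty acid oxidation genes passed 2-fold in shNFIB cells (median 0.56), against 8 rises in shControl cells (median 0.80). Of 74 nuclear respiratory chain genes 1 rose, with a median of 0.34, and none of 13 genes of the mitochondrial genome passed the limit, with a median of 0.36. Of 23 glycolysis and hypoxia genes 8 rose and none fell in shNFIB cells (median 0.73), and 8 rose in shControl cells (median 0.42). The hypoxia gene *Ndrg1* rose from 4.99 to 36.0, *Bnip3*, which marks mitochondria for removal, from 12.8 to 54.3 and *P4ha2*, a collagen hydroxylase, from 5.48 to 25.7. *Pgk1* was at 192 and 344 and *Pkm* at 260 and 231.

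None of 79 ribosomal protein genes passed 2-fold (median 0.21), and of 24 ribosome biogenesis genes 2 fell, *Ddx21* and *Utp20*, with a median of -0.44 against -0.99 in shControl cells, where 12 fell. Of 17 lysosome genes 3 rose (median 0.68), of 18 cell cycle inhibitors and p53 targets 1 rose, *Gadd45a*, and of 16 clock genes 1 rose, *Nfil3*, from 3.99 to 8.85. Of 15 NRF2 antioxidant genes *Gsta4* rose from 27.5 to 161 and *Gstm1* from 22.9 to 55.8, while *Gclm* fell from 6.06 to 2.81. The shares that rose were 5.56% (p53), 6.25% (clock) and 13.3% (NRF2), near the 10.1% of all genes, and 17.6% for the lysosome. All 17 lysosome genes were above 0 in shNFIB cells. After division by *Gapdh* none of the lysosome genes rose and their median was 0.12.

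Among signalling genes, *Igf1*, the insulin-like growth factor, rose from 0.503 to 30.9 in shNFIB cells and from 0.280 to 8.38 in shControl cells. The Wnt inhibitor *Sfrp2* rose from 0.970 to 16.2, against 0.645 to 17.0, and *Wnt5b* from 0.0606 to 1.62. *Axin2*, a Wnt target, fell from 1.31 to 0.206 and was at 0.0682 and 0.0658 in shControl cells. Of 20 TGF-β and BMP genes 2 rose and 6 fell in shNFIB cells, beside 10.1% and 4.48% of all genes, and 3 rose and 7 fell in shControl cells. *Grem1*, a BMP antagonist, fell from 108 to 18.8, against 133 to 19.5, and *Inhbb* from 4.48 to 0.905.

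Of 17 smooth muscle genes 4 rose and 2 fell in shNFIB cells (median -0.39), against 4 and 3 in shControl cells, and 4 rose and 6 fell after division by *Gapdh*. Among them *Tagln*, which encodes the actin-binding transgelin, fell from 5.07 to 0.349 against 7.19 to 0.416 in shControl cells. *Acta2*, smooth muscle actin, was at 1250 and 878. The genes of the list that rose included *Itga8*, *Mylk* and *Des*, with log2 changes of 3.20, 2.90 and 2.38 in shNFIB cells. Of 18 YAP/TAZ-TEAD targets 4 fell and none rose (median -0.51), beside 4.48% and 10.1% of all genes. After division by *Gapdh* 11 fell. *Ctgf* went from 47.9 to 20.9, *Ankrd1* from 7.77 to 2.04 and the factor *Tead4* from 3.75 to 1.05. *Cyr61* was at 47.0 and 63.3.

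Single genes with the largest changes came from several of these groups. The 10 largest rises among genes with an RPKM of at least 5 on the higher day included *Apod*, *Isg15*, *Ifi27l2a*, *Fam107a*, *Iigp1*, *Usp18*, *Gdpd2*, *G0s2* and *Oasl2*, of which 5 are induced by interferon. The lipocalin *Apod* (chromosome 16, 31296192 to 31314808) rose from 0.104 to 61.2 in shNFIB cells, a log2 change of 8.23, against 0.422 to 74.1 in shControl cells. *Fam107a*, a stress gene induced by glucocorticoids, rose from 0.0554 to 27.6, against 0.0679 to 102.

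The 10 largest falls were *Rn7s2*, *Sprr1a*, *Dusp4*, *Il1rl1*, *Tagln*, *Prl2c2*, *Hmga2*, *Hspa4l*, *Ptgs2os2* and *Prkg2*. *Sprr1a*, a small proline-rich protein, fell from 41.3 to 2.11 in shNFIB cells, against 38.2 to 8.67 in shControl cells. The MAP kinase phosphatase *Dusp4* fell from 30.6 to 2.21, and its day 0 level in shControl cells was 7.41. The chromatin protein *Hmga2*, common in embryonic and dividing cells, fell from 64.2 to 6.76, against 22.5 to 2.86. Proliferin *Prl2c2* fell from 192 to 16.9, but it shares reads with near-identical copies, as does the signal recognition particle RNA *Rn7s2*, which went from 22.1 to 0 in shNFIB cells and was at 19.1 and 15.2 in shControl cells.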

How the data were processed

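RNA-seq libraries of 4 C3H10T1/2 lines at day 0 and day 5 were examined, 1 library per condition. The authors prepared libraries with the SMARTer kit, aligned them to GRCm38 in CLC Genomics Workbench 11.0.1, with length and similarity fractions of 0.8, and deposited 1 RPKM value per gene. A quantile normalization is described in the methods but the deposited values differ in distribution, so it was applied here as an alternative only.

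Genes with an RPKM over 1 on either day were kept and 0.1 was added before the log2 ratio. Whole reads were recovered from RPKM and GENCODE M21 exon lengths (40823 symbols matched); between 96.2% and 96.6% of the values up to 1000 reads were within 0.02 of a whole number. They gave exact Clopper-Pearson 95% intervals, and 3 reads per library were the floor for folds against 0. The procedure was tried on simulated reads that had counting error only, with no variation between cultures and no PCR duplicates. Python 3.11.15, numpy 2.4.6, pandas 2.3.3, scipy 1.17.1 and matplotlib 3.10.9 were used.

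The genes, the 50 gene lists and their markers were chosen with earlier results of these data known, so no list was tested. Named genes were drawn from the target and its family, *Pparg*, *Cebpa* and *Cebpb*, the 10 largest rises and falls at an RPKM of at least 5 (Gm and Rik models left out), up to 4 members past 2-fold and the 2 most abundant of each list, and the 5 largest differences from shControl on each side. Other names were chosen after their values were seen. *Ddit3* was not analysed here, some genes within the rule are not reported here, and *Ctgf* and *Cyr61* are older symbols. Alternatives were other pseudocounts, filters, gene types and scalings.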

Additional observations from a re-analysis of the deposited data

Results flagged for a closer look

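Some genes of the lists passed 2-fold in opposite directions in shNFIB and shControl cells from day 0 to day 5. With 1 library per condition the difference between the lines was not tested for any of them. *Atf3* had a log2 change of 2.52 in shNFIB and -1.11 in shControl cells, *Trib3* of 1.98 and -3.08, *Chac1* of 1.85 and -3.10, and *Cth* of 1.62 and -2.29, all from the amino acid and stress lists. *Gadd45a*, a gene of growth arrest and DNA damage, had 1.09 and -1.08. Among histone genes *Hist1h2ah* had 4.61 and -5.96, *Hist1h2ao* 5.19 and -3.76, and *Hist1h3c* 2.03 and -1.40. Reads could be split between near-identical copies of these genes. *Hist1h2ah* and *Hist1h2ao* had no read at day 0 in shNFIB cells. The size of their rise there thus depended on the 0.1 added to each RPKM, and it was smaller with a pseudocount of 1. The adhesion molecule *Mcam*, a mesenchymal marker, had -1.64 in shNFIB and 1.82 in shControl cells.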

How the results depend on the processing

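With a pseudocount of 1, the number of higher genes was 708 and of lower genes 293. Without a filter on RPKM they were 2170 and 817, with a median log2 change of 0.14, and with a filter at an RPKM of 2 the median was 0.05. Quantile normalization gave 730 lower genes and a median of -0.06, and median-of-ratios scaling a median of -0.03. The ratio to *Gapdh* gave 626 higher and 1966 lower genes and a median of -0.49, and it turned the change of *Pparg* negative, whereas the medians of the interferon-stimulated genes (3.93), the proteoglycans (2.43) and the mitosis genes (-1.75) kept theirs. Leaving reads that resemble ribosomal RNA out of the total, an alternative chosen after seeing the data, gave a median of 0. Of the list counts 107 of the values under an alternative moved by more than 1.5 times, and 867 did not. Among the named genes past 2-fold none changed sign, which was largely fixed beforehand. Other pseudocounts, filters and gene types cannot turn a sign, and scaling by 1 factor per library shifted all genes by less than 2-fold. No paired analysis was possible because each condition has 1 library, and for the same reason no replicate could be left out. At this depth, genes such as *Adipoq*, *Cidec* and *Cfd* rest on 0 to 5 reads in shNFIB cells, so their change from day 0 to day 5 was not measurable there.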

Other observations

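Genes marking the stem cell state moved in both directions in shNFIB cells. *Ly6a*, the gene of the surface antigen Sca-1, which interferon also induces, went from 90.6 to 340 in shNFIB cells and was at 172 and 136 in shControl cells. *Pdgfra*, the receptor that marks fat cell precursors, rose from 13.9 to 35.7, against 13.4 to 70.8. *Cd44* fell from 40.2 to 17.1 and *Alcam* from 13.1 to 4.73, and in shControl cells they were at 20.7 and 15.7 and at 18.4 and 9.64. Of 13 mesenchymal markers over the filter 3 rose and 3 fell, with a median of -0.18.

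Immediate early factors were split as well. *Egr1* rose from 2.40 to 14.3 and *Fos* from 0.114 to 1.05 in shNFIB cells, while *Fosl1* fell from 39.5 to 8.14. In shControl cells *Fosl1* was at 21.2 and 11.7. The carbonic anhydrase gene *Car6* was among the 5 genes whose change in shNFIB cells lay furthest above that in shControl cells, with 0.0590 and 0.765 in shNFIB cells and 5.89 and 0.342 in shControl cells, although it stayed under the filter in shNFIB cells.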
